A study of Mus musculus with 40 samples.

Results

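The nuclear genes of oxidative phosphorylation (OXPHOS) encode most subunits of the respiratory chain and of ATP synthase. They were taken by symbol from the autosomal protein-coding genes of the mouse: the Nduf genes of complex I, Sdha to Sdhd of complex II, the Uqcr genes of complex III, the Cox4 to Cox8 families of complex IV and the Atp5 genes of complex V. This gave 91 gene records of 20807 on the autosomes, spread over 18 chromosomes. Atp5o was listed under 2 records, and 3 genes on the X chromosome were left out. The symbols also took in 8 Ndufaf assembly factors and several isoforms that belong to heart, muscle, testis or lung, so not every member is a subunit that liver uses. Genes that the annotation lists under other symbols are not included.

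In the mitochondrial inner membrane, complexes I and II pass electrons from NADH and succinate to ubiquinone, complex III passes them on to cytochrome c, and complex IV passes them to oxygen. The proton gradient that results drives ATP synthase, which is complex V. In liver this machinery serves fatty acid oxidation during fasting. The nuclear genes are known targets of the nuclear respiratory factor NRF1, of ETS family factors, of YY1 and of the estrogen-related receptors (ERRs), orphan nuclear receptors that work with the coactivator PGC-1α. NCoR and SMRT are related corepressors that hold the histone deacetylase HDAC3, and all 3 are called cofactors here.

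The study mapped these cofactors by chromatin immunoprecipitation followed by sequencing (ChIP-seq) in whole liver. The livers came from male C57BL/6 mice that were fed ad libitum and carried a floxed Bcl6 gene (Bcl6 fl/fl), with no Cre in these controls. The analysis rests on 3 lists of peaks, with 35138 peaks for NCoR, 10654 for SMRT and 14462 for HDAC3. Each list came from 3 libraries. Per the study's methods these were pooled for the first peak finding, and peaks were then kept by counts of each library. The other 31 of the 40 samples (livers lacking Bcl6, fasted livers, a histone mark, PPARδ and inputs) were not analysed here. The lists hold positions only, so no peak has a height, a depth or a value for each animal. Differences between animals, genotypes and feeding states were not measured, and since sequencing depth was not given the lengths of the lists are not compared. Intervals in the text are exact (Clopper-Pearson) 95% binomial intervals, which cover counting error only, since genes and peaks are not replicates.

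A gene was called bound where the centre of a peak lay within 1000 bp of one of its transcription start sites (TSSs). NCoR was found at 28 of the 91 OXPHOS genes (30.8%, 21.5 to 41.3), beside 22.4% (21.9 to 23.0) of the other 20716 autosomal protein-coding genes. HDAC3 was found at 9 (9.89%, 4.62 to 17.9), beside 7.51% of the other genes. SMRT was found at 3 (3.30%, 0.685 to 9.33), beside 4.19%. For each cofactor the share of the other genes fell inside the interval of the OXPHOS genes, and for NCoR it lay near the lower bound. For NCoR this turned with the window and the choice of genes. In 6 of 11 alternative settings the share of the others fell below the interval. Among these were a window of 500 bp (29.7%, 20.5 to 40.2, beside 18.6%) and a window of 2000 bp (37.4%, 27.4 to 48.1, beside 26.7%). Another left out the isoforms of other tissues that are listed further on (33.3%, 23.4 to 44.5, beside 22.4%). The remaining 63 genes (69.2%, 58.7 to 78.5) had no promoter peak in any list, beside 77.0% of the others.

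**Figure D1:**
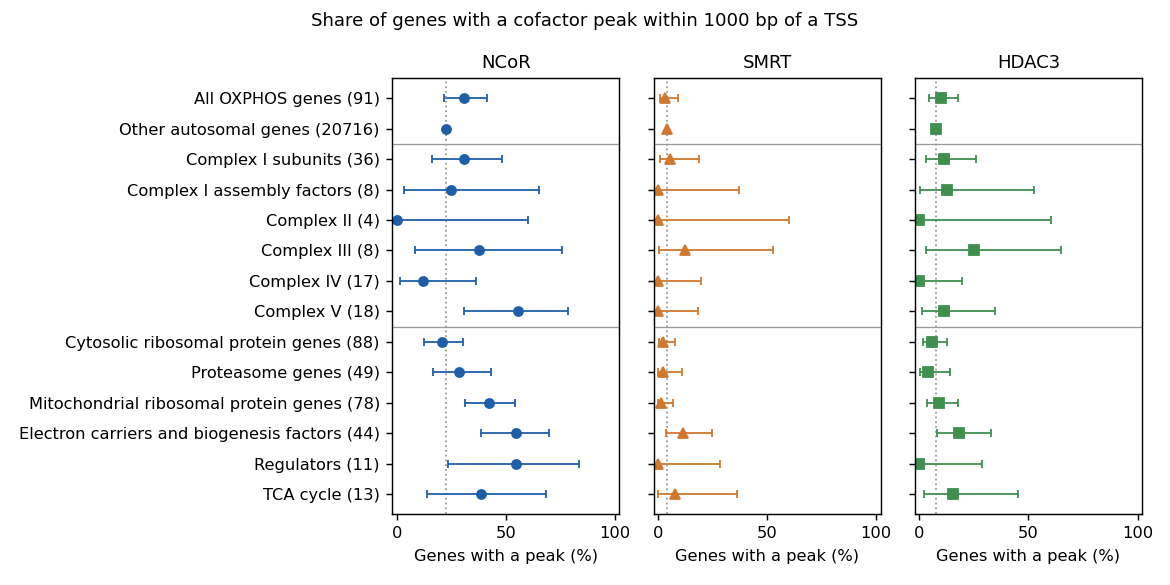
Percentage of genes (x axis) with a peak centre of NCoR, SMRT or HDAC3 within 1000 bp of a TSS, for the OXPHOS genes, each complex and comparison lists, with the number of genes in brackets. Points are shares, bars are exact 95% binomial intervals for counting only, and the dotted line is the share of the other autosomal genes (22.4%, 4.19% and 7.51%). The NCoR share ran from 0 of 4 genes in complex II to 55.6% of 18 genes in complex V.

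A 7-letter string that ERRs recognise, AAGGTCA, was present in 11 of the 32 NCoR promoter peaks of the OXPHOS genes. These sites are shown because they carry the sequence that differed most in percentage points, of 12 strings searched, between the NCoR peaks of these genes and of other genes (the shares are given further on). Each line gives 27 bases of the GRCm38 (mm10) genome, written 5′ to 3′ on the strand that reads AAGGTCA, with that string in capitals. The sites of Atp5a1 and Ndufa2 are not printed.
Atp5g3 (chr2:73911362-73911388, plus strand): gaagacgctcAAGGTCActttgtaaca
Atp5l (chr9:44920739-44920765, plus strand): ccccatttccAAGGTCAggctgcccct
Atp5k (chr5:108434360-108434386, minus strand): ttccggcgcgAAGGTCAcggacaaaat
Atp5g2 (chr15:102670920-102670946, plus strand): gggagctagcAAGGTCAgggcggccac
Atp5e (chr2:174463652-174463678, plus strand): ctactgggaaAAGGTCActaaggtcac
Atp5e (chr2:174463713-174463739, plus strand): gcaggtgagcAAGGTCAgtgtcagcgt
Ndufb2 (chr6:39592374-39592400, plus strand): gagcagcagtAAGGTCAgccaagagca
Ndufs6 (chr13:73328417-73328443, plus strand): cagccggcggAAGGTCAgcaccgccgc
Ndufs8 (chr19:3912395-3912421, minus strand): ctacaggtcaAAGGTCAcaagagggcg
Uqcrq (chr11:53430419-53430445, minus strand): tgactggcctAAGGTCActtgggtgac

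Of the 11 matches at these 9 genes, 8 lay downstream of the TSS and 3 upstream, from -187 to +440 bp, and 6 were within 100 bp of it. They lay 2 to 82 bp (median 35.0) from the centre of the NCoR peak. The peaks were picked by a match in their central 200 bp, so short distances were fixed in advance by the search. In Uqcrq and Ndufs6 the match lay 2 bp from the peak centre. Atp5e had 3 matches inside 1 peak, of which the first printed line shows 2. The match in Atp5g3 was the only one of the 11 with TC before it, the longer form of the ERR half-site. The Ndufs8 peak was also the only one of the 32 with the DR1 string AGGNCAAAG.

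Complex I had the most bound genes by number. NCoR was at 11 of its 36 subunit genes (30.6%, 16.3 to 48.1), beside 22.4% of the other autosomal genes. HDAC3 was at 4 (11.1%), beside 7.51%, and SMRT at 2 (5.56%), beside 4.19%. Ndufb2, an accessory subunit of the membrane arm, was the only OXPHOS gene with NCoR, SMRT and HDAC3 peak centres all in its promoter window and at a single site. NCoR lay at chr6:39592350-39592578, with its centre 110 bp upstream of the TSS. The SMRT peak, chr6:39592331-39592543, was centred 137 bp upstream, and the HDAC3 peak, chr6:39592406-39592618, was centred 62 bp upstream. All of these centres were outside the gene, whereas most OXPHOS peaks lay inside theirs.

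Ndufs4, an accessory subunit whose loss causes Leigh syndrome, had NCoR and SMRT without HDAC3. The NCoR peak was at chr13:114387827-114388055, in an intron 317 bp downstream of the TSS, and the SMRT peak at chr13:114387871-114388083, with its centre in a coding exon 281 bp downstream. The nearest HDAC3 peak was 75047 bp from the NCoR centre. Ndufv3, an accessory subunit of the NADH-oxidising module, had 4 promoter peaks, the most of any OXPHOS gene. These formed 2 sites of NCoR and HDAC3. At the first, NCoR (chr17:31520154-31520382) was centred at +83 bp and HDAC3 (chr17:31520089-31520301) at +10 bp. At the other, NCoR (chr17:31520835-31521063) was at +764 bp and HDAC3 (chr17:31520807-31521019) at +728 bp, both in an intron. The nearest SMRT peak was 74764 bp from the first NCoR centre.

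NCoR was also joined by HDAC3, without SMRT, at Ndufc1 and Ndufa2, both accessory subunits. In Ndufc1 the NCoR peak (chr3:51408760-51408988) was centred at +90 bp in a coding exon and the HDAC3 peak (chr3:51408714-51408926) at +144 bp in an intron. In Ndufa2 the centres were at +139 bp for NCoR (chr18:36744304-36744532) and +100 bp for HDAC3 (chr18:36744351-36744563), within 1000 bp of the TSS of the neighbouring gene Ik. Other complex I genes had an NCoR peak alone close to the TSS. Ndufab1, the mitochondrial acyl carrier protein, had its NCoR centre at +3 bp (chr7:122101734-122101962). Ndufs8, an iron-sulfur core subunit, had it at +23 bp (chr19:3912351-3912579), and Ndufs6, an accessory subunit, at +27 bp (chr13:73328314-73328542). Ndufa10, Ndufb3 and Ndufs7 also had NCoR alone. Of the 8 assembly factors, which build complex I and are not part of it, Ndufaf4 had NCoR alone and Ndufaf6 had NCoR with HDAC3. In Ndufaf6 the NCoR peak (chr4:11075900-11076128) was at +190 bp and the HDAC3 peak (chr4:11075955-11076167) at +143 bp, both in a coding exon.

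None of the 4 subunit genes of complex II (succinate dehydrogenase) had a promoter peak of any cofactor, which with so few genes allows a share of up to 60.2%. Of the other autosomal genes, 77.0% had none either. In complex III, 3 of 8 genes had NCoR (37.5%, 8.52 to 75.5), beside 22.4% of the other genes. Uqcrc2, a core subunit, had NCoR alone. Uqcrb, a small subunit, had NCoR at +137 bp (chr13:66905127-66905355) and HDAC3 at +91 bp (chr13:66905181-66905393), and both centres also lay in the 5′ UTR of the gene Gm10767. Uqcrq, another small subunit, held 2 separate sites. An NCoR peak without a partner was centred on the TSS itself, at 0 bp (chr11:53430320-53430548). About 1 kb upstream lay a site of all 3 cofactors, with SMRT at -997 bp (chr11:53431718-53431930) and HDAC3 at -979 bp (chr11:53431700-53431912). The NCoR peak of that site (chr11:53431740-53431968) was centred at -1027 bp, just outside the promoter window, and so was not counted. No OXPHOS gene had a SMRT or HDAC3 promoter peak that lacked an NCoR peak within 200 bp. Such peaks were also few at other genes. Of 1550 HDAC3 promoter peaks there, 8.52% had no partner and 0.903% had SMRT without NCoR. Of 867 SMRT promoter peaks there, 39 had no partner and 15 had HDAC3 without NCoR. With 10 HDAC3 and 3 SMRT peaks at OXPHOS genes, a count of 0 allows shares of up to 30.8% and 70.8%. It therefore does not set these genes apart.

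In complex IV (cytochrome c oxidase) NCoR was at 2 of 17 genes (11.8%, 1.46 to 36.4), Cox5a and Cox7a2. This interval took in the 22.4% of the other autosomal genes. Neither SMRT nor HDAC3 was at any, which allows a share of up to 19.5%, above the 4.19% and 7.51% of the other genes. Several subunits of this complex exist as a form used in liver and a form used in other tissues. Of the 6 genes of the liver or general form (Cox4i1, Cox6a1, Cox6b1, Cox7a2, Cox8a and Ndufa4), Cox7a2 had an NCoR peak, at +111 bp, and the nearest NCoR peak of the others was 13.8 to 47.9 kb away. None of the 7 genes of forms from other tissues was bound (Cox4i2, Cox6a2, Cox6b2, Cox7a1, Cox8b, Cox8c and Ndufa4l2). Their nearest NCoR peaks were 1.32 to 67.5 kb away, with Ndufa4l2 the closest at +1316 bp. Cox7b2, which was not in this list, had no promoter peak either, and its nearest NCoR peak was 450700 bp away. The distances of the liver and other forms overlapped. Ndufa4 is a subunit of complex IV despite its symbol, and it was counted with complex I by that symbol.

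Complex V had the highest share of bound genes of the complexes. NCoR was at 10 of 18 (55.6%, 30.8 to 78.5), and this interval did not reach the 22.4% of the other genes. The complex was 1 of 6 groups looked at, and no test was made of it. HDAC3 was at 2 (11.1%), beside 7.51%. SMRT was at none, which allows a share of up to 18.5%, above the 4.19% of the other genes. The bound genes were Atp5a1 and Atp5b of the catalytic head, Atp5d and Atp5e of the central stalk, Atp5g2 and Atp5g3 of the proton-carrying ring, and Atp5j2, Atp5k and Atp5l, small membrane subunits, with Atp5s beside them. NCoR was at none of the genes of the peripheral stalk (Atp5f1, Atp5h, Atp5j and both Atp5o records), nor at Atp5c1 of the central stalk, Atp5g1 of the ring or Atp5mpl.

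Atp5d had NCoR with HDAC3 at the TSS. The NCoR peak (chr10:80141360-80141588) was centred at +17 bp and the HDAC3 peak (chr10:80141351-80141563) at 0 bp, and a second NCoR peak, without a partner, lay at +209 bp from a downstream TSS (chr10:80142465-80142693). The ring subunit c is encoded by 3 genes, Atp5g1, Atp5g2 and Atp5g3, that give the same mature protein. Each had a different arrangement. Atp5g3 had NCoR alone at +32 bp (chr2:73911179-73911407). Atp5g2 had NCoR (chr15:102670866-102671094, +147 bp) and HDAC3 (chr15:102670878-102671090, +143 bp) in an intron, with centres 4 bp apart, and a further NCoR peak without a partner at -754 bp (chr15:102671767-102671995). Atp5g1 had no promoter peak, but a site of all 3 cofactors lay just beyond the window, with SMRT at -1243 bp (chr11:96076807-96077019), HDAC3 at -1248 bp (chr11:96076812-96077024) and NCoR at -1265 bp (chr11:96076821-96077049).

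**Figure D2:**
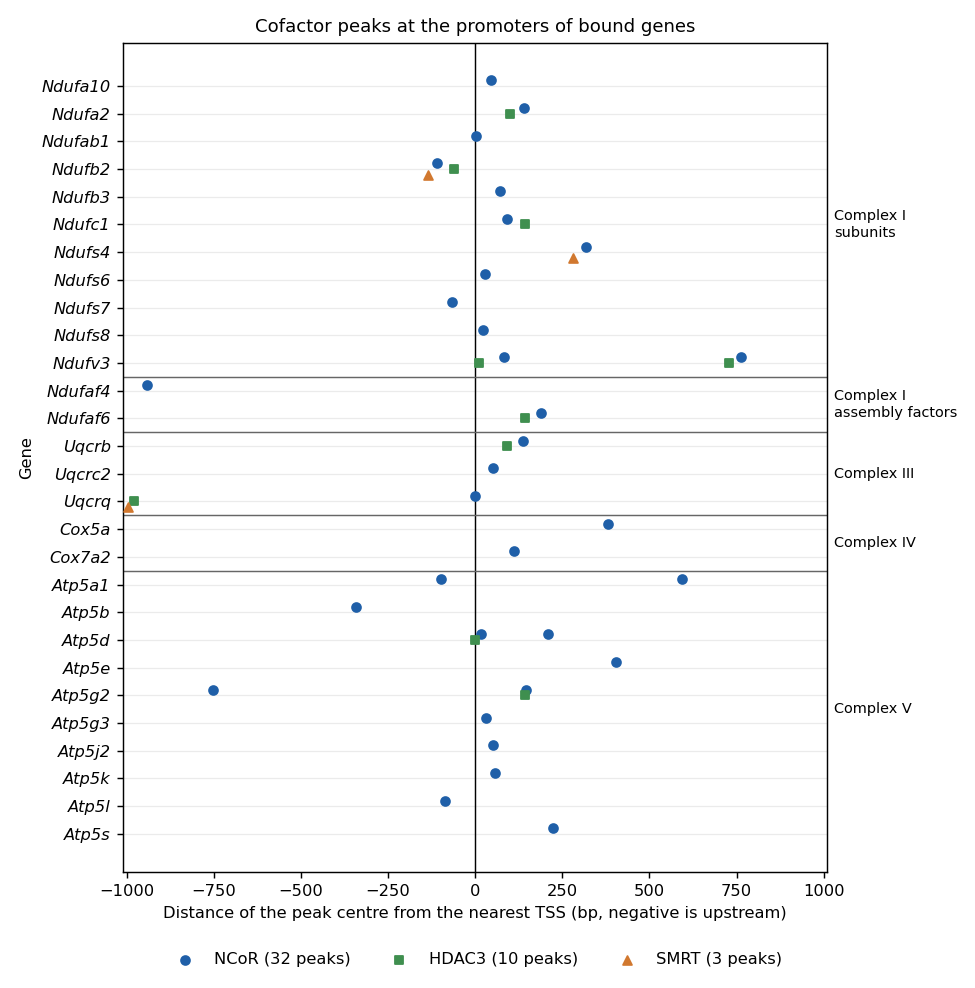
Distance of each promoter peak centre from the nearest TSS in bp (x axis, negative is upstream) for the 28 OXPHOS genes with a peak (rows, by complex). Circles are the 32 NCoR peaks, squares the 10 HDAC3 peaks and triangles the 3 SMRT peaks. Each list came from 3 libraries, and most symbols lie just to the right of the TSS line.

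The longer stretches below are shown because they hold the site of all 3 cofactors at Ndufb2 and the NCoR and HDAC3 site at Atp5g2, the pair with the closest centres. Each is the part of the NCoR peak that lies outside every annotated exon, from GRCm38 (mm10), written 5′ to 3′ on the strand of the gene. Capitals mark AAGGTCA, its reverse complement TGACCTT, and TGACGTCA, the CREB string.
Ndufb2 (chr6:39592350-39592573, plus strand): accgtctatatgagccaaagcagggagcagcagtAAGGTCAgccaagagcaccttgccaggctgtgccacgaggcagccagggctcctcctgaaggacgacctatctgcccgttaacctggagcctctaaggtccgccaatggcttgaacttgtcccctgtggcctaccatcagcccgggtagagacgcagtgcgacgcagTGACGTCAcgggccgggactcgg
Atp5g2 (chr15:102670866-102671017, minus strand): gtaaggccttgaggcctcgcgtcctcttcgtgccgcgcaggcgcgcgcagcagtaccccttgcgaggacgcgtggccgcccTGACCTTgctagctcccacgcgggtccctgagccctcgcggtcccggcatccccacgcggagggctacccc

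The Ndufb2 stretch runs from -224 to -1 bp. In order from the 5′ end it holds the ERR string, the NF-Y string and the CREB string. The Atp5g2 stretch runs from +110 to +261 bp inside an intron. It holds the NRF1 string, followed by AAGGTCA on the reverse strand. A match of letters is a description and was not measured as binding of any factor.

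By partner, the 32 NCoR promoter peaks of the OXPHOS genes fell mostly into the class without SMRT or HDAC3 within 200 bp. This class held 22 (68.8%, upper bound 83.9), beside 67.9% of the 4786 NCoR promoter peaks of other genes. NCoR with HDAC3 made up 8 (25.0%, 11.5 to 43.4), beside 15.1%. Sites of all 3 cofactors made up 1 (3.12%, 0.0791 to 16.2), beside 14.2%, and NCoR with SMRT 1, beside 2.76%. Among NCoR peaks with a partner, HDAC3 without SMRT accounted for 8 of 10 at these genes (80.0%, 44.4 to 97.5), beside 47.1% of 1535 at other genes. With a window ending 100 bp downstream the share of all NCoR peaks with HDAC3 and not SMRT was 3 of 20, or 15%, beside 14.8%. Seen from HDAC3, 8 of its 10 promoter peaks had NCoR and not SMRT (80.0%, 44.4 to 97.5), beside 46.9% of the 1550 at other genes, and 2 had both, beside 43.7%. At the 9 sites where an NCoR promoter peak had HDAC3, the centres were 4 to 73 bp apart (median 46.0). Like lists are the cytosolic ribosomal, proteasome and mitochondrial ribosomal protein genes. In that order, sites of all 3 cofactors made up 5.56% of 18, 6.67% of 15 and 2.94% of 34 NCoR promoter peaks. The small share of all 3 was thus not particular to the OXPHOS genes, and their interval took in the 14.2% of other genes. NCoR with HDAC3 made up 22.2%, 6.67% and 8.82% in these lists. Of their HDAC3 promoter peaks, 4 of 5, 1 of 2 and 3 of 7 had NCoR and not SMRT.

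Most NCoR peaks of OXPHOS genes lay downstream of the TSS, while those of other genes lay on both sides of it. Their median position was +53.5 bp (quartiles 2.25 and 158), and 7 of 32 were upstream (21.9%, 9.28 to 40.0). At other genes the median was -28.0 bp and 56.1% (54.7 to 57.5) were upstream. In the first 100 bp downstream lay 13 peaks (40.6%), beside 15.5% of the others. At other families of basic cell function the upstream share was 72.2% of 18 NCoR peaks (cytosolic ribosomal protein genes), 73.3% of 15 (proteasome genes) and 52.9% of 34 (mitochondrial ribosomal protein genes). The 10 HDAC3 peaks of OXPHOS genes had a median of +95.5 bp with 2 upstream, beside 56.6% upstream at other genes. Among genes with a single TSS, where no choice of TSS enters, 3 of 14 NCoR peaks of OXPHOS genes were upstream (21.4%, 4.66 to 50.8), beside 55.5% of 2011. With the 5′ end of each gene as its only TSS, 4 of 29 were upstream (13.8%, 3.89 to 31.7), beside 50.4% (48.8 to 51.9) of 4013.

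**Figure D3:**
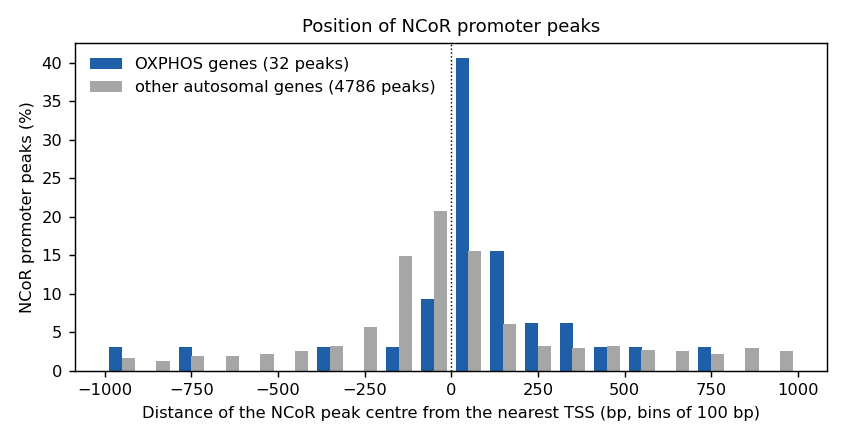
Percentage of NCoR promoter peaks (y axis) in bins of 100 bp by distance of the centre from the nearest TSS (x axis, bp, negative is upstream), for 32 peaks at OXPHOS genes and 4786 at other autosomal genes. The tallest bar of the OXPHOS genes is the bin from 0 to 100 bp downstream, with 40.6% of their peaks and 15.5% of the others.

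By annotation, 13 of the 32 NCoR centres lay in a 5′ UTR, 10 in an intron, 4 in a coding exon and 5 outside the gene. A promoter shared with a neighbour was present for 7 of the peaks, at 6 genes (21.9%, 9.28 to 40.0), beside 8.82% of the NCoR promoter peaks of other genes. The neighbours with a TSS in reach included Haus1 beside Atp5a1, Ik beside Ndufa2, Fam126b beside Ndufb3, Mrpl36 beside Ndufs6 and Gm10767 beside Uqcrb. At these the peak cannot be given to a single gene.

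To see which strings accompany NCoR at these genes, 12 short strings were searched on both strands in the central 200 bp of each NCoR promoter peak: ERR AAGGTCA, NRF1 GCGCANGCG, YY1 AANATGGCG, CREB TGACGTCA, SP GGGCGGG, ETS CCGGAAG, NF-Y CCAAT, C/EBP TTNNGCAA, FOX TGTTTAC, HNF4 CAAAGTCCA, DR1 AGGNCAAAG and BCL6/STAT TTCNNNGAA. The last letters of DR1 can overlap the first of an ERR match. The ERR string was in 11 peaks (34.4%, 18.6 to 53.2), beside 7.25% (6.53 to 8.02) at other genes and 13.7% of all 35138 NCoR peaks. By complex, 6 of the 13 NCoR peaks of complex V held it (Atp5a1, Atp5e, Atp5g2, Atp5g3, Atp5k and Atp5l), 4 of the 12 of complex I subunits (Ndufa2, Ndufb2, Ndufs6 and Ndufs8), and 1 of 3 of complex III (Uqcrq). It was in 8 of the 22 peaks without a partner (36.4%, 17.2 to 59.3), beside 6.09% of the same class elsewhere. The lists of like genes had it in 1 of 18 peaks (cytosolic ribosomal), 0 of 15 (proteasome) and 3 of 34 (mitochondrial ribosomal).

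The NRF1 string was in 6 of the 32 peaks (18.8%, 7.21 to 36.4), beside 5.33%, and the YY1 string in 5 (15.6%, 5.28 to 32.8), beside 1.32%. CREB was in 3 (9.38%, 1.98 to 25.0), beside 1.80%. For NRF1, YY1 and CREB, as for ERR, the interval lay above the share of the other peaks. CCAAT, the NF-Y string, went the other way, with 2 peaks (6.25%, 0.766 to 20.8) beside 23.8%. ETS was in 2 (6.25%), beside 9.28%, C/EBP in 1 (3.12%), beside 11.0%, and BCL6/STAT, the string of the repressor that the study was about, in 1, at Cox7a2 (3.12%, 0.0791 to 16.2), beside 4.60%. FOX and HNF4, strings of liver factors, were in none of the 32, beside 4.03% and 1.34%. For each this allows a share of up to 10.9%, above that of the other peaks.

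**Figure D4:**
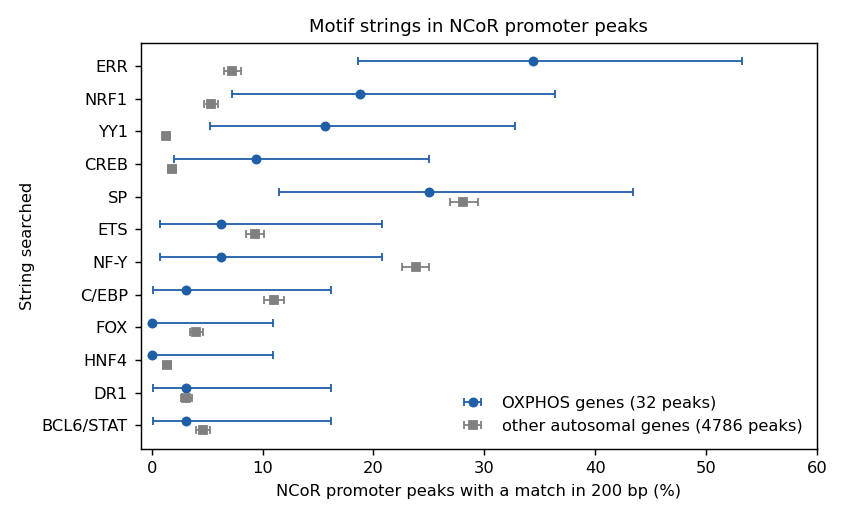
Percentage of NCoR promoter peaks (x axis) with a match to each string in the central 200 bp (y axis), for 32 peaks at OXPHOS genes (circles) and 4786 at other autosomal genes (squares). Bars are exact 95% binomial intervals for counting only, and the widest separation in percentage points is for the ERR string, with 34.4% against 7.25%.

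Position and string vary together, so the shares were also taken over peaks centred from the TSS to 250 bp downstream, a choice made after the values were seen. There the ERR string was in 7 of 20 peaks of OXPHOS genes (35.0%, 15.4 to 59.2), beside 4.46% of 1121. The NRF1 string was in 6 (30.0%), beside 7.49%, the YY1 string in 4 (20.0%), beside 2.05%, the CREB string in 2 (interval 1.23% to 31.7%), beside 1.43%, and CCAAT in 1 (interval 0.127% to 24.9%), beside 16.7%. For ERR, NRF1 and YY1 the intervals again lay above the share of the other peaks, while for CREB and CCAAT the interval now took it in.

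The strings are also common at OXPHOS genes whether or not NCoR was there. In the 300-base promoters (250 bases before to 50 after the 5′ end), the ERR string was in 10 of 91 (11.0%, 5.40 to 19.3), beside 4.20% of other promoters. NRF1 and ETS were each in 17 (18.7%, 11.3 to 28.2), beside 8.12% and 11.0%. Of the like genes, ERR was in 9.09% of cytosolic ribosomal, 10.2% of proteasome and 3.85% of mitochondrial ribosomal protein genes, NRF1 in 10.2%, 14.3% and 19.2%, and ETS in 26.1%, 34.7% and 34.6%. Among promoters of CpG quintiles 4 and 5, ERR was in 12.3% of OXPHOS genes (5.08 to 23.7), beside 2.17%, and NRF1 in 22.8% (12.7 to 35.8), beside 17.8%. Within 250 bases on either side of any TSS, 28 OXPHOS genes held the ERR string (30.8%), beside 9.23%. Of these 28, 13 had an NCoR promoter peak (46.4%, 27.5 to 66.1), and of the 63 without the string, 15 had one (23.8%, 14.0 to 36.2). These intervals overlapped. At other genes NCoR was at 25.8% with the string and 22.1% without. The 15 genes with the string and no NCoR peak included Sdha and Sdhd, Cox6a1, Cox7c and Cox8a, and Ndufs1. For NRF1 the shares with NCoR were 33.3% of 27 with the string and 29.7% of 64 without. The YY1 string was in 4 of the 300-base promoters (4.40%, 1.21 to 10.9), beside 2.90%. Within 250 bases of a TSS it was at 21 OXPHOS genes (23.1%, 14.9 to 33.1), beside 5.75%. NCoR was at 42.9% of these 21 (21.8 to 66.0) and at 27.1% of the 70 without it (17.2 to 39.1). At other genes NCoR was at 31.4% with the YY1 string and 21.9% without.

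OXPHOS promoters are rich in CpG, and NCoR was more frequent at CpG-rich promoters of all kinds, from 9.18% of the other genes in the lowest quintile to 33.9% in the highest. The median of the OXPHOS genes for the ratio of observed to expected CpG was 0.779, beside 0.539 for the others. In quintiles 4 and 5 of all autosomal promoters by this ratio, the highest ones, NCoR was at 18 of 57 OXPHOS genes (31.6%, 19.9 to 45.2) and at 31.5% (30.5 to 32.5) of 8286 others. Among CpG-rich promoters the NCoR shares of OXPHOS and other genes thus differed by far less than the width of the interval. Within the OXPHOS genes the order was not the same, with a median of 0.741 for the 28 with NCoR and 0.801 for the 63 without. In quintile 3 NCoR was at 8 of 22 OXPHOS genes (36.4%, 17.2 to 59.3), beside 24.2% of the others. In quintile 2 it was at 1 of 8 (12.5%), beside 15.8%, and in quintile 1 at 1 of 4, beside 9.18%. HDAC3 was at 4 of the 57 OXPHOS genes in quintiles 4 and 5 (7.02%, 1.95 to 17.0), beside 9.52% of the others, and at 5 of 22 in quintile 3 (22.7%, 7.82 to 45.4), beside 8.23%.

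The share of genes with NCoR depends on how far from the TSS a peak may lie. Within 100 bp of a TSS NCoR was at 16 OXPHOS genes (17.6%, lower bound 10.4), beside 8.61% of the others. Within 500 bp it was at 27 (29.7%, 20.5 to 40.2), beside 18.6%, and the widening from 500 to 1000 bp added 1 gene, Ndufaf4, whose NCoR centre was at -942 bp. Within 10 kb it was at 48 (52.7%, 42.0 to 63.3), beside 42.2%. For HDAC3 the shares at 10 kb were 19.8% and 20.6%, and for SMRT 11.0% and 14.6%. The median distance from a TSS to the nearest NCoR peak was 7.41 kb for OXPHOS genes and 16.5 kb for the others, and by complex it was 0.373 kb in complex V, 4.44 kb in the subunits of complex I and 25.1 kb in complex IV. No peak of any cofactor lay within 10 kb for 43 gene records (47.3%, 36.7 to 58.0), beside 57.3%, among them Atp5f1, Atp5j, Atp5mpl, both Atp5o records, Cox4i1, Cox4i2, Cox5b, Cox6a1 and Cox6a2.

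**Figure D5:**
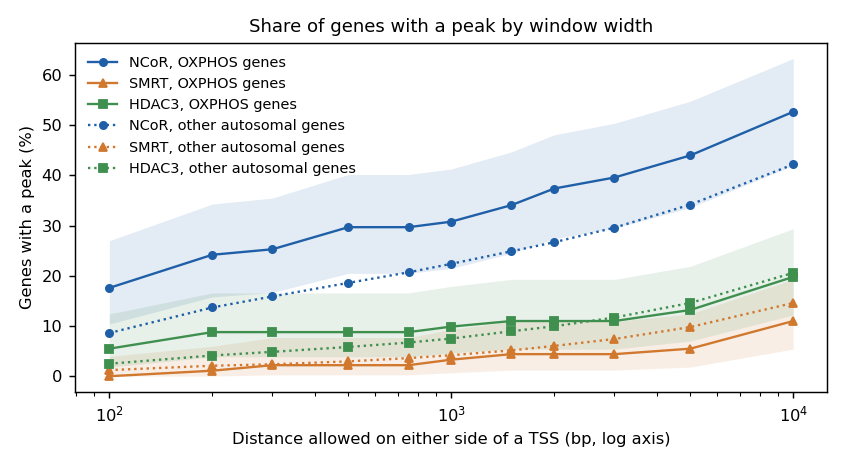
Percentage of genes (y axis) with a peak centre within a given distance of a TSS (x axis, bp, log scale) for NCoR, SMRT and HDAC3, in OXPHOS genes (solid lines, shaded exact 95% binomial intervals) and other autosomal genes (dotted). The NCoR line of the OXPHOS genes lies above that of the others from 100 bp (17.6% and 8.61%) to 10 kb (52.7% and 42.2%), and the HDAC3 lines meet.

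Among lists of like genes, the NCoR share was 20.5% (12.6 to 30.4) of 88 cytosolic ribosomal protein genes, 28.6% (16.6 to 43.3) of 49 proteasome genes and 42.3% (31.2 to 54.0) of 78 mitochondrial ribosomal protein genes, so the 30.8% of the OXPHOS genes lay within the range of these. Other genes of the pathway, listed for their roles, had higher NCoR shares, with overlapping intervals. Of 44 electron carriers and biogenesis factors, 24 had NCoR (54.5%, 38.8 to 69.6), beside 22.4% of other autosomal genes. HDAC3 was at 8 (18.2%, 8.19 to 32.7), beside 7.51%, and SMRT at 5 (11.4%, 3.79 to 24.6), beside 4.19%. Sites of all 3 cofactors made up 5 of the 25 NCoR promoter peaks (20.0%, 6.83 to 40.7), beside 14.2%. All 3 cofactors met at Cycs, which encodes cytochrome c (NCoR -317 bp, SMRT -303 bp, HDAC3 -282 bp), at Etfa and Etfdh, which pass electrons from fatty acid oxidation to ubiquinone, and at Coa5 and Cox20, assembly factors of complex IV. Cyc1, a complex III subunit that the symbol rule left out, had NCoR alone at +465 bp. The 25 NCoR promoter peaks of this list were upstream in 17 (68.0%, 46.5 to 85.1), beside the 21.9% of the OXPHOS genes.

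Of 11 regulators of these genes, 6 had NCoR (54.5%, 23.4 to 83.3), beside the 22.4% of other genes. Each had NCoR without SMRT or HDAC3, the class of 67.9% of NCoR promoter peaks elsewhere. Among them were Esrra, which encodes ERRα (+348 bp, chr19:6921346-6921574), and Ppargc1a, which encodes PGC-1α (-5 bp, chr5:51553813-51554041). Gabpb1, a partner of an ETS factor (+201 bp), and Yy1 (-306 bp) were there too. The others were Tfb1m and Tfb2m, named as mitochondrial transcription factors (-41 and -85 bp). Of 13 genes of the citric acid cycle, 5 had NCoR (38.5%, 13.9 to 68.4), beside the same 22.4%, with all 3 cofactors at Idh3a.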

How the data were processed

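ChIP-seq was done by the authors in fed control male livers. Per the submitters' processing notes and the study's methods, reads were aligned to mm10 with Bowtie, peaks were called with HOMER on pooled replicates against input, and DESeq2 was used on the individual libraries. The deposited lists give peak positions (chromosome, start, end) and no other value. All intervals of a list have 1 length, 228 bp for NCoR and 212 bp for SMRT and HDAC3. Sequencing depth is not given in the sources used here.

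Peaks were assigned to TSSs of protein-coding transcripts in the GENCODE vM21 basic annotation by their centres (1000 bp either side), and partners were peaks with centres within 200 bp, the study's distance. Sequences came from GRCm38, and all peaks lay within its chromosome lengths. Peak coordinates stand as deposited, and the sources do not say whether starts count from 0 or 1. CpG quintiles were set over the promoters of all autosomal genes. Shares have exact binomial intervals at 95%, and no test was run, since lists of positions hold no replicate values. Python 3.11.15, numpy 2.4.6, scipy 1.17.1 and matplotlib 3.10.9 were used, and the assignment was tested on simulated data.

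The members, gene lists, strings and alternatives were chosen with earlier results of these data known. Genes were named by rule: sites of all 3 cofactors, NCoR with HDAC3, most peaks, NCoR alone closest to the TSS, and tissue isoforms, with coordinates, and other bound genes once by complex. Genes with the ERR string, those near the edge of the window and members of the pathway lists were named in addition, after their values were seen. Some genes that the counts include are not reported here by name.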

Additional observations from a re-analysis of the deposited data

How the results depend on the processing

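Of 100 shares recomputed, 97 stayed within the interval of the reported value. Some could not move, since leaving out the listed isoforms or the second Atp5o record removed no peak. The intervals are also wide, so this count says little about robustness. With NCoR peaks that had a partner only, NCoR was at 9.89% of OXPHOS genes (7.43% of others). The ERR string was in 15.6% of the 32 NCoR peaks when searched in the central 100 bp (4.55% of others) and in 6.25% in its longer form with TC before it (0.564%), both chosen after seeing the data. Of 100 differences between OXPHOS and other genes, 3 changed sign, all for the share of NCoR peaks without a partner, which differed by 0.823 percentage points as reported, by -1.93 with a window of 500 bp, by -0.187 with each peak given to the nearest TSS and by -0.556 with partners within 100 bp. The NCoR share of OXPHOS genes exceeded that of others by 2.46 to 11.0 points over the alternatives, and was lower, at 22.0% beside 17.5%, with a window ending 100 bp downstream. Leaving out the second Atp5o record, an alternative added after seeing the data, gave 31.1%.

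No paired analysis was possible because the replicates of a cofactor had been pooled and no result comes from a test. A stricter peak threshold and leaving out a replicate were not run, since the lists hold no score and no replicate values. Depth is unknown, so a promoter without a peak is one where none passed the authors' threshold.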
